A study of Mus musculus with 12 samples.

Results

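Secreted Wnt antagonists are proteins that cells release to keep Wnt ligands from their receptors. The genes of 8 of them were followed here, namely Sfrp1, Sfrp2, Sfrp4, Sfrp5, Frzb, Wif1, Dkk2 and Dkk3, matched by symbol among 38293 genes in each of 2 count tables. They were chosen from results of these same libraries, in which Sfrp2 was high after injury and low in the hearts labelled Zeb2 cTg, while Wif1 was high in the latter. The values of the 8 genes in both comparisons are therefore given as a description, without p-values.

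RNA was sequenced from hearts of male C57Bl/6J mice, 8 to 9 weeks old according to the methods, with 3 mice per group. One table holds wild-type mice after sham surgery (WT sham) and wild-type mice 14 days after ischaemia/reperfusion (IR), in which a coronary artery is tied off for 1 h and then released (WT IR). The other holds wild-type littermates 14 days after IR (Zeb2 WT IR) and mice of the same time point in which αMHC-Cre, active in cardiomyocytes, switches on a Zeb2 transgene in the Rosa26 locus (Zeb2 cTg IR). Both groups of that table were injured, so it holds no uninjured heart, and whether the littermates carry Cre is not given in the sources used here. The age at tissue collection and the time after sham surgery are not given in the labels either. The sources name the tissue differently, as left ventricle, as infarct with border zone, or as remote zone. Each table was normalized on its own, and levels from both are only set side by side.

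Wnt ligands are lipid-modified proteins that bind Frizzled receptors together with the co-receptors Lrp5 and Lrp6, which stabilises β-catenin and switches on target genes through TCF/LEF factors. The Sfrp proteins and Frzb carry a domain that resembles the ligand-binding part of Frizzled, and Wif1 binds Wnt through a domain of its own, so all of these can hold the ligand outside the cell. Proteins of the Dkk family act on the co-receptors instead, with Dkk3 as a divergent member whose link to Lrp5 and Lrp6 is less clear. In the heart, genes of this kind are known from fibroblasts, and Sfrp proteins have been studied in infarct healing.

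The 8 genes lie apart on the mouse genome (GRCm38, GENCODE M21), with only Sfrp2 and Dkk2 sharing a chromosome. Sfrp1 lies on chromosome 8 (23411502 to 23449632), Sfrp2 on chromosome 3 (83766321 to 83774316), Sfrp4 on chromosome 13 (19623104 to 19632994) and Sfrp5 on chromosome 19 (42197971 to 42202252, minus strand). Frzb lies on chromosome 2 (80411970 to 80447625, minus strand), Wif1 on chromosome 10 (121033960 to 121100650), Dkk2 on chromosome 3 (132085292 to 132180304) and Dkk3 on chromosome 7 (112116017 to 112159057, minus strand). Genes without a strand named are on the plus strand. RefSeq promoter windows (GRCm38.p6) of 250 bases before the start were at hand for 5 of the 8 genes, namely Sfrp2, Sfrp5, Frzb, Wif1 and Dkk2. The windows of Sfrp2 and Wif1 are printed because these genes moved in opposite directions in the Zeb2 table. Each is given 5′ to 3′ up to the last base before the annotated gene, at chr3:83766071-83766320 (plus strand, 250 bases) for Sfrp2 and chr10:121033754-121033959 (plus strand, 206 bases) for Wif1, with the letters of the E-box CACCTG in capitals where they occur:
Sfrp2: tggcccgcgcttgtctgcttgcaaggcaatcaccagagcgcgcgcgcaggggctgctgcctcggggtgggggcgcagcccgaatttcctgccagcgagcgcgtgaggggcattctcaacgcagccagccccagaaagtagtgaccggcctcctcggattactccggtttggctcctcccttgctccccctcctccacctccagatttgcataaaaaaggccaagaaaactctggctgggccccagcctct
Wif1: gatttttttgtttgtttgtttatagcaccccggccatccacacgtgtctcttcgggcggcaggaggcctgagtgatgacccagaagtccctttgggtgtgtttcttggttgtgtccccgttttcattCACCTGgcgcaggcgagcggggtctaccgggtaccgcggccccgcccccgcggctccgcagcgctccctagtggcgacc
CACCTG is an E-box form that ZEB factors are known to bind. It was searched on both strands together with the TCF/LEF motif CTTTGA. Other forms were not searched, among them CACCT without the last base, whose letters occur in the printed Sfrp2 window. The window of Wif1 held 1 E-box on the plus strand, 123 to 118 bases before its RefSeq start, and that of Sfrp5 held 1 on the minus strand, 229 to 224 bases before its start. Neither motif occurred in the windows of Sfrp2 and Dkk2, and that of Frzb held 1 TCF/LEF motif on the minus strand (95 to 90 bases before its RefSeq start). The last 44 bases of the Wif1 window and 229 bases of the Frzb window lie inside the gene as GENCODE draws it, and are not shown. Over 32851 mouse promoter windows of the same length, 17.2% held the E-box and 13.8% the TCF/LEF motif. A match of letters is a description of the sequence and shows no binding.

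The libraries held between 20215781 and 36816818 counts on genes, of which 60.6% to 73.5% fell on the mitochondrial genome, so the depth behind the values is the 5706340 to 11618213 counts on other genes. Levels are given in counts per 1e6 counts after TMM scaling (CPM), and 1 CPM stands for between 17.2 and 37.8 counts in a library. Zeb2 itself, the check of the labels, had 54.7, 57.8 and 67.0 CPM in Zeb2 WT IR and 55.5, 56.9 and 58.7 CPM in Zeb2 cTg IR. These ranges overlap (log2 fold change -0.07, SE 0.12), so the second group is named by its label only, as hearts labelled Zeb2 cTg, and each direction given for it rests on that label. Whether the annotation behind the counts takes up reads of the Rosa26 transgene is not given in the sources used here, so these CPM may leave it out. After injury Zeb2 had 71.5 ± 11.2 CPM (SD, n = 3) and WT sham 51.6 ± 3.73 CPM (SD, n = 3), with a log2 fold change of 0.47 (SE 0.12, adjusted p = 0.0219 in edgeR). That call was lost without WT sham replicate 1, WT sham replicate 2 or WT IR replicate 2 (0.44, 0.44 and 0.38) and with a correction for GC content (0.29, adjusted p = 0.0677 in edgeR), and the value lay below 0 with size factors from fibroblast markers. Defining markers of heart muscle were present in every library, with 18 cardiomyocyte markers summing to between 48291 and 72083 CPM. No batch or date is given in the labels.

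In WT IR, 4 of the 5 antagonists with enough counts to be tested were past the threshold of 0.05 on the adjusted p-value and higher than in WT sham, and none was lower. Of all 13756 genes tested there, 11.0% were higher and 9.74% lower past the threshold. In the hearts labelled Zeb2 cTg, 1 antagonist, Wif1, was higher and 1, Sfrp2, was lower past the threshold, where 2.14% and 1.51% of all 13018 genes tested were higher and lower. Because both comparisons chose the genes, nothing is read from these shares. The share of all genes whose groups do not overlap was not counted. Overlap of groups is therefore given below as a description only, whether or not a gene passed the threshold. Sfrp4, Sfrp5 and Dkk2 did not pass the filter on low counts in either table.

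**Figure D1:**
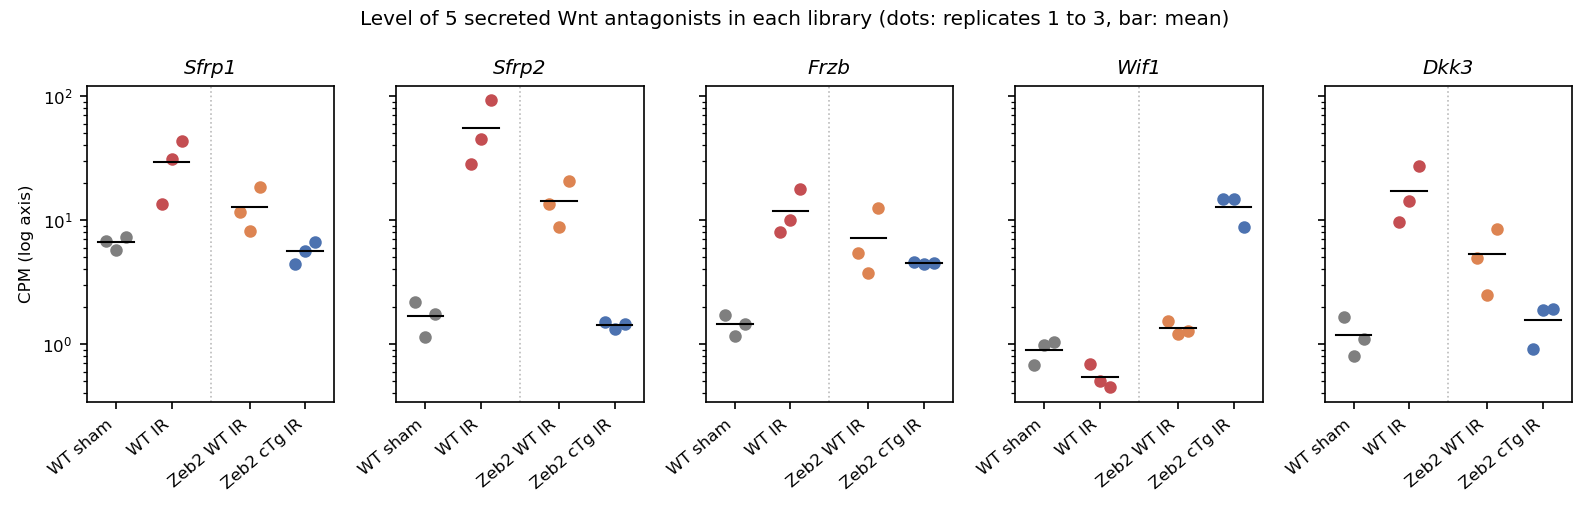
Level of the 5 antagonists that passed the filter in each of the 12 libraries, in CPM on a log axis, with 1 dot per mouse (left to right replicates 1 to 3) and a bar at the group mean. The dotted line separates the 2 tables, which were normalized separately. Sfrp2 spans the widest range, from 1.13 CPM in a WT sham library to 92.3 CPM in a WT IR library, and Wif1 is high in the 3 hearts labelled Zeb2 cTg.

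Sfrp2 binds Wnt ligands and has also been linked to the processing of procollagen. It had 2.19, 1.13 and 1.75 CPM in WT sham and 28.2, 45.2 and 92.3 CPM in WT IR. Every injured heart of this table was above every sham heart, and the injured hearts themselves spread 3.27-fold. The fitted difference was 33.2-fold (log2 fold change 5.05, SE 0.48). In the other table Sfrp2 had 13.4, 8.82 and 20.7 CPM in Zeb2 WT IR and 1.51, 1.34 and 1.46 CPM in the hearts labelled Zeb2 cTg. Here the groups did not overlap, and the 3 latter libraries lay within 1.13-fold of each other. The fitted difference was 9.96-fold lower (log2 fold change -3.32, SE 0.31). With 1 library left out in turn, the log2 fold change ranged from 4.47 to 5.37 after injury and from -3.57 to -2.95 in the Zeb2 table.

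Sfrp1, a relative of Sfrp2 that binds Wnt ligands as well, had 6.77, 5.76 and 7.28 CPM in WT sham and 13.6, 31.0 and 43.6 CPM in WT IR. The groups did not overlap, and the lowest injured heart was replicate 1. The difference was 4.48-fold (log2 fold change 2.16, SE 0.36). Without WT sham replicate 2 it just missed the threshold, with a log2 fold change of 2.05. In Zeb2 WT IR it had 11.7, 8.18 and 18.6 CPM, against 4.44, 5.61 and 6.71 CPM in the hearts labelled Zeb2 cTg. All 3 of the latter were below the former, with a log2 fold change of -1.19 (SE 0.28) that did not pass the threshold. It passed in the fits without Zeb2 WT IR replicate 2 and without Zeb2 cTg IR replicate 2.

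Frzb, also called Sfrp3 and first known from cartilage, had 1.70, 1.17 and 1.46 CPM in WT sham and 8.03, 9.95 and 17.8 CPM in WT IR. The groups did not overlap, and the difference was 8.28-fold (log2 fold change 3.05, SE 0.32). In Zeb2 WT IR it had 5.39, 3.76 and 12.4 CPM and in the hearts labelled Zeb2 cTg 4.61, 4.47 and 4.49 CPM. These groups overlapped, since the lowest Zeb2 WT IR library lay below all 3 labelled Zeb2 cTg. The log2 fold change was -0.68 (SE 0.37), did not pass, and was -0.02 without Zeb2 WT IR replicate 3.

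Dkk3, the divergent member of the Dickkopf family, followed the same order after injury. It had 1.66, 0.797 and 1.11 CPM in WT sham and 9.69, 14.3 and 27.3 CPM in WT IR, without overlap. The difference was 14.4-fold (log2 fold change 3.85, SE 0.43). It had 4.95, 2.51 and 8.43 CPM in Zeb2 WT IR and 0.922, 1.87 and 1.91 CPM in the hearts labelled Zeb2 cTg. The groups did not overlap, with a log2 fold change of -1.74 (SE 0.43) that did not pass the threshold. As for Sfrp1, it passed without Zeb2 WT IR replicate 2 and without Zeb2 cTg IR replicate 2.

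Wif1, which binds Wnt through the WIF domain, moved differently from the other genes. It had 0.681, 0.981 and 1.05 CPM in WT sham and 0.687, 0.503 and 0.447 CPM in WT IR. These are 18 to 32 and 12 to 22 counts per library, and the groups overlapped. The log2 fold change of -0.70 (SE 0.28) did not pass, though it passed without WT IR replicate 1 (-0.90). In Zeb2 WT IR it had 1.54, 1.21 and 1.27 CPM, and in the hearts labelled Zeb2 cTg 14.9, 14.7 and 8.87 CPM. Each of the latter was above each of the former, and replicate 3 was the lowest of them. The difference was 9.52-fold (log2 fold change 3.25, SE 0.25), and ranged from 3.12 to 3.46 on the log2 scale with 1 library left out in turn.

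The 3 remaining genes were close to the limit of detection. Sfrp4 had at most 5 counts in a library, with 3 to 5 in Zeb2 WT IR and 0 to 2 in the hearts labelled Zeb2 cTg. Sfrp5 had 1 to 9 counts in WT sham, 1 to 5 in WT IR, 0 in all 3 Zeb2 WT IR libraries and 1 to 2 in those labelled Zeb2 cTg. Dkk2, the one classical co-receptor antagonist among the 8 genes, had between 0 and 3 counts in every library. No fold is given for these genes, which had too few counts for a comparison at this depth.

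To compare levels between genes, CPM were divided by the length of each gene's exons in kb. The sum over the 8 genes was 3.57 ± 0.590 CPM per kb (mean ± SD, n = 3) in WT sham and 41.5 ± 22.9 CPM per kb (SD, n = 3) in WT IR. In the other table it was 14.0 ± 6.26 CPM per kb (SD, n = 3) in Zeb2 WT IR and 9.16 ± 1.14 CPM per kb (SD, n = 3) in the hearts labelled Zeb2 cTg. These last groups overlapped in the sum, from 8.45 to 20.8 against 7.86 to 9.99 CPM per kb, while the shares of Sfrp2 and Wif1 in it did not overlap. Sfrp1 was the most abundant of the 8 genes in WT sham, with 42.6% of the sum (SD 3.95, n = 3), ahead of Sfrp2 with 21.6% (SD 3.50). Sfrp2 led in WT IR with 60.9% (SD 2.92, n = 3) and in Zeb2 WT IR with 47.9% (SD 1.43, n = 3). Wif1 led in the hearts labelled Zeb2 cTg with 57.1% (SD 9.28, n = 3), where Sfrp2 made up 7.37% (SD 1.21, n = 3). In Zeb2 WT IR Wif1 had made up 4.47% (SD 1.76, n = 3). The next genes in WT sham were Frzb with 12.4%, Wif1 with 10.8% and Dkk3 with 9.71% of the sum (SD 0.447, 3.54 and 2.17). Frzb was above Dkk3 in each WT sham library, with 12.9%, 12.3% and 12.1% against 12.2%, 8.13% and 8.83%. The place of Wif1 among them changed between libraries (6.90%, 13.8% and 11.6%).

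**Figure D2:**
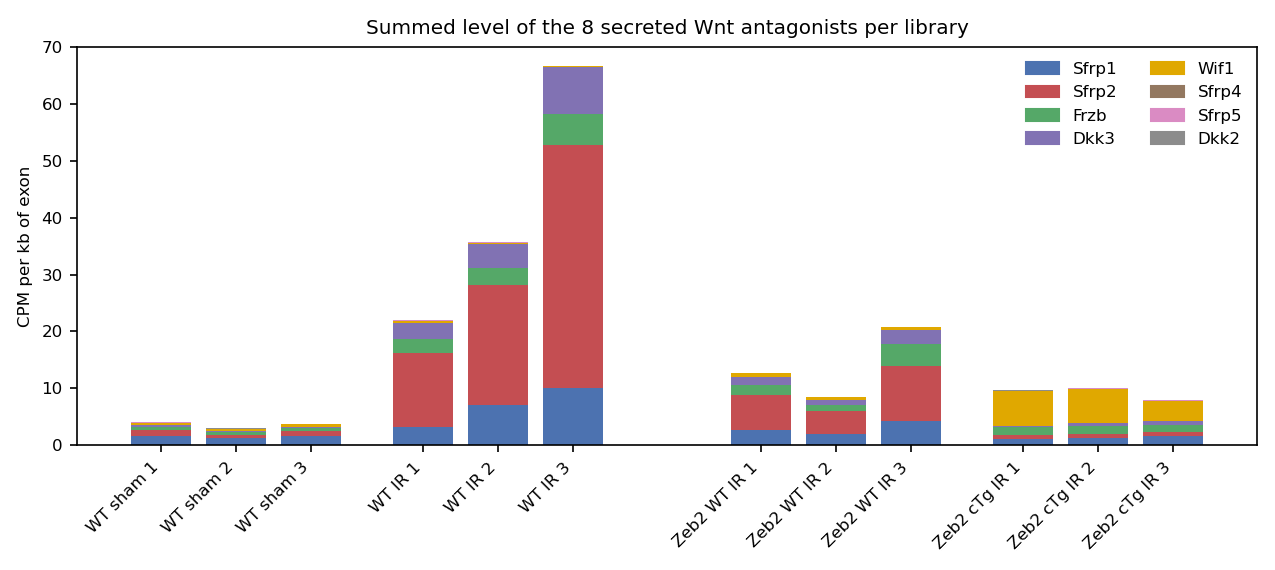
Summed level of the 8 antagonists in each library, in CPM per kb of exon, with 1 stacked bar per mouse and the share of each gene in colour. Sfrp2 fills most of the bars of the WT IR libraries, whose sums range from 22.0 to 66.7 CPM per kb, and Wif1 fills 46.5% to 63.9% of the bars labelled Zeb2 cTg.

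Within the injured wild-type groups, 4 of the antagonists had the same high and low hearts. In WT IR replicate 3 was the highest and replicate 1 the lowest library for Sfrp1, Sfrp2, Frzb and Dkk3, and in Zeb2 WT IR replicate 3 was the highest and replicate 2 the lowest for the same 4 genes. Wif1 was highest in replicate 1 of both groups. The summed level of 16 fibroblast markers had the order of the 4 genes, with 2274, 3205 and 4897 CPM in WT IR and 1520, 1114 and 2117 CPM in Zeb2 WT IR. It was 1348, 947 and 1006 CPM in WT sham and 1033, 801 and 1225 CPM in the hearts labelled Zeb2 cTg. In these bulk samples, fewer cells of a type and less RNA per cell cannot be told apart.

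Of the 16 fibroblast markers, 13 were higher and none lower past the threshold in WT IR (median log2 fold change 1.57), and 1 was higher and 3 lower in the hearts labelled Zeb2 cTg (median -0.51). A list of 8 genes known from scar fibroblasts, of which 7 were tested, had 7 higher after injury (median 4.31) and 2 lower in the Zeb2 table (median -1.69). Its summed level ranged from 36.9 to 78.1 CPM in WT sham, 310 to 1052 CPM in WT IR, 112 to 406 CPM in Zeb2 WT IR and 43.6 to 108 CPM in the hearts labelled Zeb2 cTg, and Chad was at 0 in every WT sham library. The median over all genes tested was 0.01 in both comparisons. Past the threshold, 11.0% of all genes were higher and 9.74% lower after injury, and 2.14% and 1.51% in the Zeb2 table. Macrophage markers had 7 of 8 higher after injury and none past the threshold in the Zeb2 table. The marker lists were chosen with earlier results of these data known, so their counts are a description. The part of these cell types in the levels of the antagonists was not tested.

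The antagonists were also set against the summed fibroblast markers. Per 1000 CPM of these markers, Sfrp2 had 1.52 ± 0.284 CPM (SD, n = 3) in WT sham and 15.1 ± 3.34 CPM (SD, n = 3) in WT IR. In Zeb2 WT IR this was 8.83 ± 0.928 CPM (SD, n = 3), and in the hearts labelled Zeb2 cTg 1.44 ± 0.239 CPM (SD, n = 3). The groups stayed apart in both tables on this scale. Sfrp1 ranged from 5.02 to 7.23 in WT sham and from 5.98 to 9.68 in WT IR, and from 7.34 to 8.77 in Zeb2 WT IR against 4.30 to 7.005 in the hearts labelled Zeb2 cTg. It thus overlapped between sham and injured hearts relative to fibroblast markers. Frzb was 1.31 ± 0.116 (SD, n = 3) in WT sham, 3.42 ± 0.278 (SD, n = 3) in WT IR, 4.27 ± 1.39 (SD, n = 3) in Zeb2 WT IR and 4.57 ± 0.958 (SD, n = 3) in the hearts labelled Zeb2 cTg. Dkk3 was 1.06 ± 0.199 (SD, n = 3) in WT sham and 4.76 ± 0.709 (SD, n = 3) in WT IR, and 2.25 to 3.98 in Zeb2 WT IR overlapped 0.893 to 2.33 in the hearts labelled Zeb2 cTg. Wif1 was 0.861 ± 0.308 (SD, n = 3) in WT sham and 0.183 ± 0.108 (SD, n = 3) in WT IR, and 0.900 ± 0.265 (SD, n = 3) in Zeb2 WT IR against 13.4 ± 5.65 (SD, n = 3) in the hearts labelled Zeb2 cTg. Wif1 was the one of the 5 genes whose level per fibroblast marker was lower in every injured than in every sham heart of the wild-type table. Its CPM overlapped between these groups, while the summed markers it was divided by averaged 1100 CPM in WT sham and 3459 CPM in WT IR. Any gene that does not follow the fibroblast markers would fall on this scale, so no change of Wif1 itself is read from it. After injury the median log2 fold change was 4.31 for the scar fibroblast list and 1.57 for these 16 markers. In the Zeb2 table the medians were -1.69 and -0.51. A shift among kinds of fibroblast and a change of an antagonist itself cannot be told apart on this scale.

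**Figure D3:**
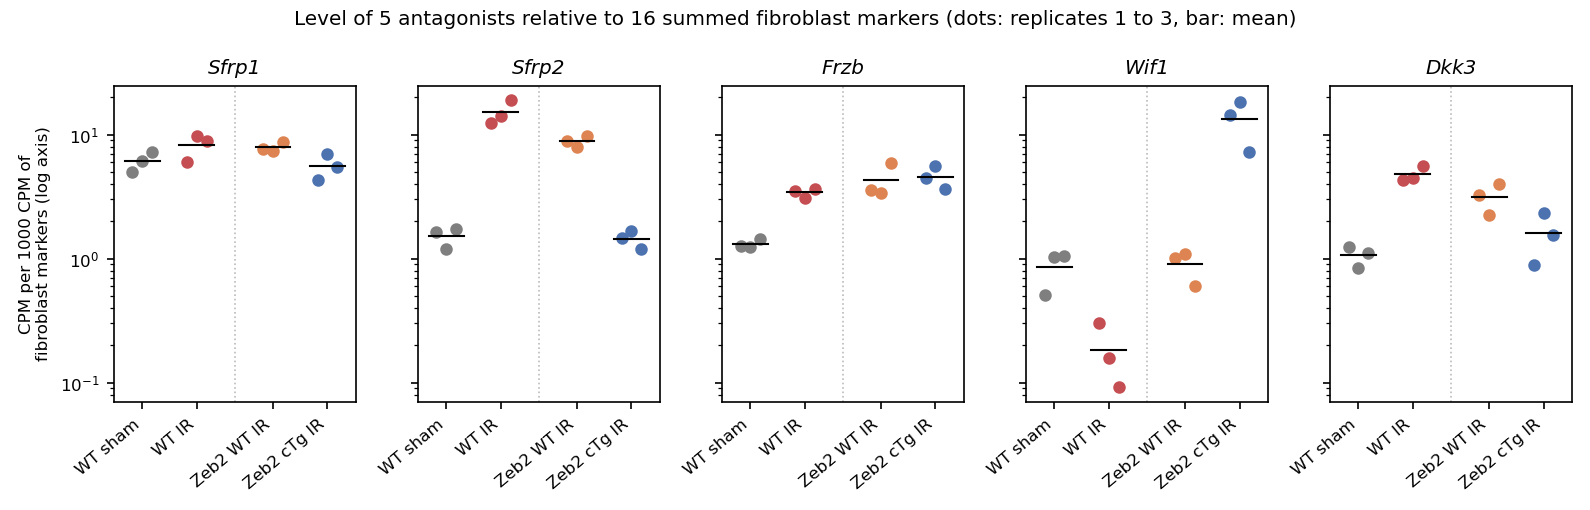
Level of 5 antagonists divided by the summed level of 16 fibroblast markers in the same library, in CPM per 1000 CPM of markers on a log axis, with 1 dot per mouse and a bar at the group mean. The dotted line separates the 2 tables. Sfrp2 stays above sham in WT IR and below Zeb2 WT IR in the hearts labelled Zeb2 cTg, whereas Sfrp1 overlaps between WT sham and WT IR.

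Size factors taken from cell-type markers were used in place of TMM. They shift all genes of a library alike, so a value relative to the median of all genes stays close to that with TMM by construction. With factors from the fibroblast markers the median of all genes moved to -1.38 after injury and to 0.45 in the Zeb2 table, and with factors from the cardiomyocyte markers to 0.26 and -0.19. With the fibroblast factors, Sfrp2 was 3.49 (SE 0.45) after injury and -2.78 (SE 0.34) in the Zeb2 table, and past the threshold in both. Sfrp1 was 0.60 (SE 0.40) after injury and no longer past it, and Wif1 was -2.10 (SE 0.47) and past it. Dkk3 was -1.18 (SE 0.33) in the Zeb2 table and past the threshold with these factors. Relative to the median of all genes, Sfrp2 was 4.87, Dkk3 3.72, Frzb 2.93, Sfrp1 1.98 and Wif1 -0.72 after injury with these factors. In the Zeb2 table the values relative to the median were -3.23 for Sfrp2, 3.29 for Wif1, -1.63 for Dkk3, -1.12 for Sfrp1 and -0.54 for Frzb. With the cardiomyocyte factors, Sfrp1 (-1.39, SE 0.29) and Dkk3 (-1.93, SE 0.42) were past the threshold in the Zeb2 table as well. No antagonist changed direction under these scalings. The same libraries chose the genes, so a call kept or gained under a scaling is a description and no independent support. The split of all genes past the threshold moved with them, from 1519 higher of 2859 with TMM to 2737 of 3029 with the cardiomyocyte and 60 of 12261 with the fibroblast factors after injury, and from 278 of 474 to 153 of 503 and 2145 of 2259 in the Zeb2 table.

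**Figure D4:**
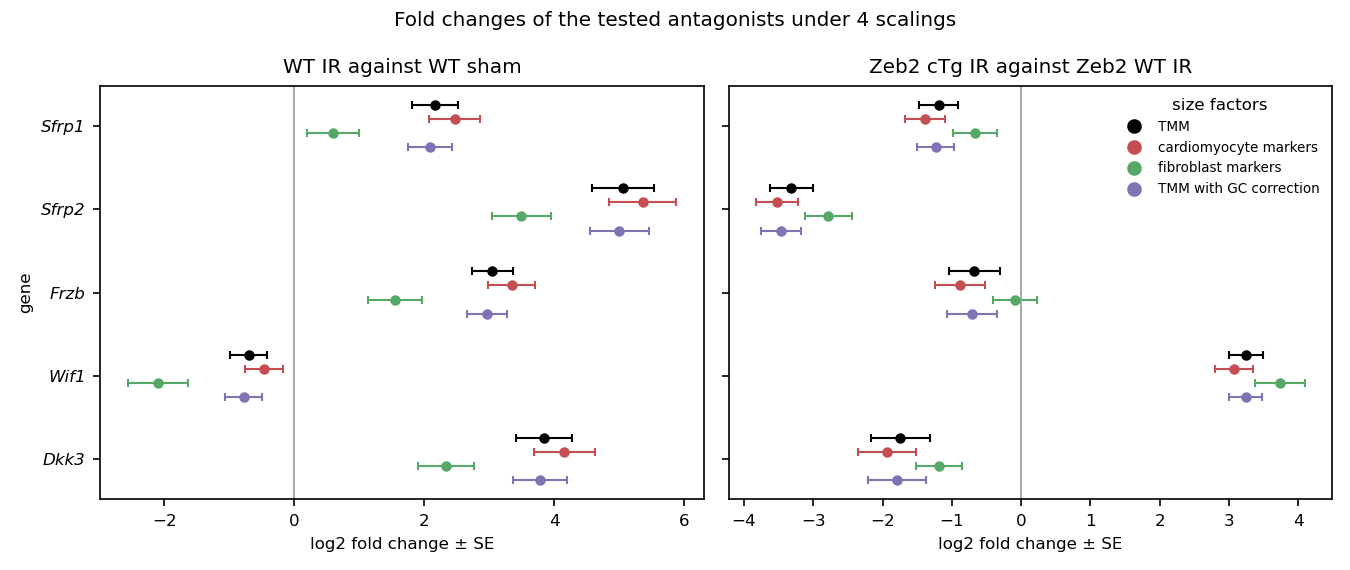
Log2 fold change of the 5 tested antagonists (points) with its standard error (bars), for WT IR against WT sham on the left and for the hearts labelled Zeb2 cTg against Zeb2 WT IR on the right, with TMM factors, factors from 2 marker lists, and TMM with a correction for GC content. In both panels the 4 points of a gene lie on the same side of 0, and of the 4 genes above 0 after injury Sfrp1 comes nearest to it, at 0.60 with the fibroblast factors.

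In the Zeb2 table the log2 fold change of all genes rose with the GC content of their transcripts (Spearman's rho 0.552 across genes, which are not independent), whereas after injury the rho was -0.292. The 5 tested antagonists have transcripts of 49.7% to 52.9% GC. After a correction for GC content, Sfrp2 was -3.46 (SE 0.29) and Wif1 3.24 (SE 0.24) in the Zeb2 table. Sfrp1 (-1.23, SE 0.27) and Dkk3 (-1.79, SE 0.41), which did not pass without it, were past the threshold. These libraries chose the genes, so the added calls are a description and no further support.

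The rest of the pathway was followed in a list of 82 genes of ligands, ligand release, receptors, R-spondins, other antagonists, transducers and feedback targets. Only 4 of 19 Wnt ligands, Wnt5a, Wnt5b, Wnt9a and Wnt11, had enough counts to be tested. After injury 47 genes of the list could be tested, and 7 of them were higher and 5 lower past the threshold, together 25.5%, where 11.0% of all genes were higher and 9.74% lower. The median log2 fold change of the 47 genes was -0.01, against 0.01 over all genes. Among the feedback targets, Nkd2, which restrains Dishevelled, was 2.42 (SE 0.43, adjusted p = 0.00785 in edgeR's quasi-likelihood test), and Myc, a growth regulator, was 1.22 (SE 0.23, adjusted p = 0.00934). Axin2, the most widely used readout of β-catenin activity, was -0.57 (SE 0.18, adjusted p = 0.0476 in edgeR), a call that was lost whichever library was left out (adjusted p from 0.0554 to 0.119) and with the cardiomyocyte factors (-0.32, adjusted p = 0.293). Of the 6 tested feedback targets, 2 were higher and 1 lower past the threshold. Beside the shares over all genes, nothing is read from this count or from that of the list.

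Among the receptors and co-receptors, 3 of 15 tested genes were higher and 1 lower after injury. Over all genes tested, 11.0% were higher and 9.74% lower past the threshold, so nothing is read from these counts. The receptor Fzd1 rose by 0.89 on the log2 scale (SE 0.17, adjusted p = 0.00901 in edgeR), Ror2, a receptor for Wnt5a, by 1.13 (SE 0.25, adjusted p = 0.0160), and the co-receptor Ptk7 by 0.67 (SE 0.18, adjusted p = 0.0285). Fzd5 fell, with -0.56 (SE 0.14, adjusted p = 0.0244). Apcdd1, a membrane-bound Wnt inhibitor, rose by 1.24 (SE 0.28, adjusted p = 0.0154), and Wls, which carries Wnt ligands to the cell surface, by 0.39 (SE 0.12, adjusted p = 0.0488). The transducers Bcl9l (-0.60, SE 0.15, adjusted p = 0.0231) and Dvl1 (-0.40, SE 0.11, adjusted p = 0.0321) fell, as did Wnt5a (-0.48, SE 0.15, adjusted p = 0.04999 in edgeR, just inside the threshold). With the cardiomyocyte factors none of the genes that fell stayed past the threshold, with -0.32 for Fzd5 (adjusted p = 0.158), -0.36 for Bcl9l (adjusted p = 0.0754), -0.15 for Dvl1 (adjusted p = 0.415) and -0.25 for Wnt5a (adjusted p = 0.331 in edgeR). The GC correction ended the calls of Axin2 (-0.57), Bcl9l (-0.38), Dvl1 (-0.23) and Wls (0.22, adjusted p = 0.157 in edgeR), and DESeq2 those of Ror2, Ptk7, Fzd5, Wnt5a and Axin2. With 1 library left out, Wls, Ptk7 and Fzd5 passed in 1 of 6 fits each, and Bcl9l, Dvl1 and Wnt5a in 2 of 6. Ctnnb1, which encodes β-catenin, was 0.29 (SE 0.10, adjusted p = 0.0592) and did not pass. With the fibroblast factors Fzd1, Myc, Apcdd1, Ror2, Ptk7 and Wls lay below 0. The count of 12 genes depended on the libraries, since it was 4, 0 and 5 without WT sham replicates 1, 2 and 3, and 19, 5 and 7 without WT IR replicates 1, 2 and 3.

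In the hearts labelled Zeb2 cTg, where 2.14% of all genes were higher and 1.51% lower past the threshold, 46 genes of the list were tested. Of these 1, the receptor Ror1, was past the threshold. It was lower, with a log2 fold change of -0.97 (SE 0.20, adjusted p = 0.0347 in edgeR), from 7.59 ± 1.07 CPM (SD, n = 3) in Zeb2 WT IR to 3.87 ± 0.904 CPM (SD, n = 3). The call held without Zeb2 WT IR replicate 1 (adjusted p = 0.0453) and without Zeb2 cTg IR replicate 2 (adjusted p = 0.00541), and was lost in the other 4 fits that left out 1 library, with adjusted p-values up to 0.155 in edgeR. It was also lost with the fibroblast factors (-0.52, adjusted p = 0.246 in edgeR). Axin2 was 0.59 (SE 0.35, adjusted p = 0.329), Ctnnb1 -0.06 (SE 0.11, adjusted p = 0.765) and Wls 0.05 (SE 0.17, adjusted p = 0.893), none of them past the threshold. None of the 6 tested feedback targets and none of the 4 tested ligands was past the threshold. Beside the shares over all genes, nothing is read from these counts. The median over the list was -0.05. The count of 1 gene became 6 without Zeb2 cTg IR replicate 2, and 0 without Zeb2 WT IR replicate 2 or 3 or without Zeb2 cTg IR replicate 1 or 3.

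**Figure D5:**
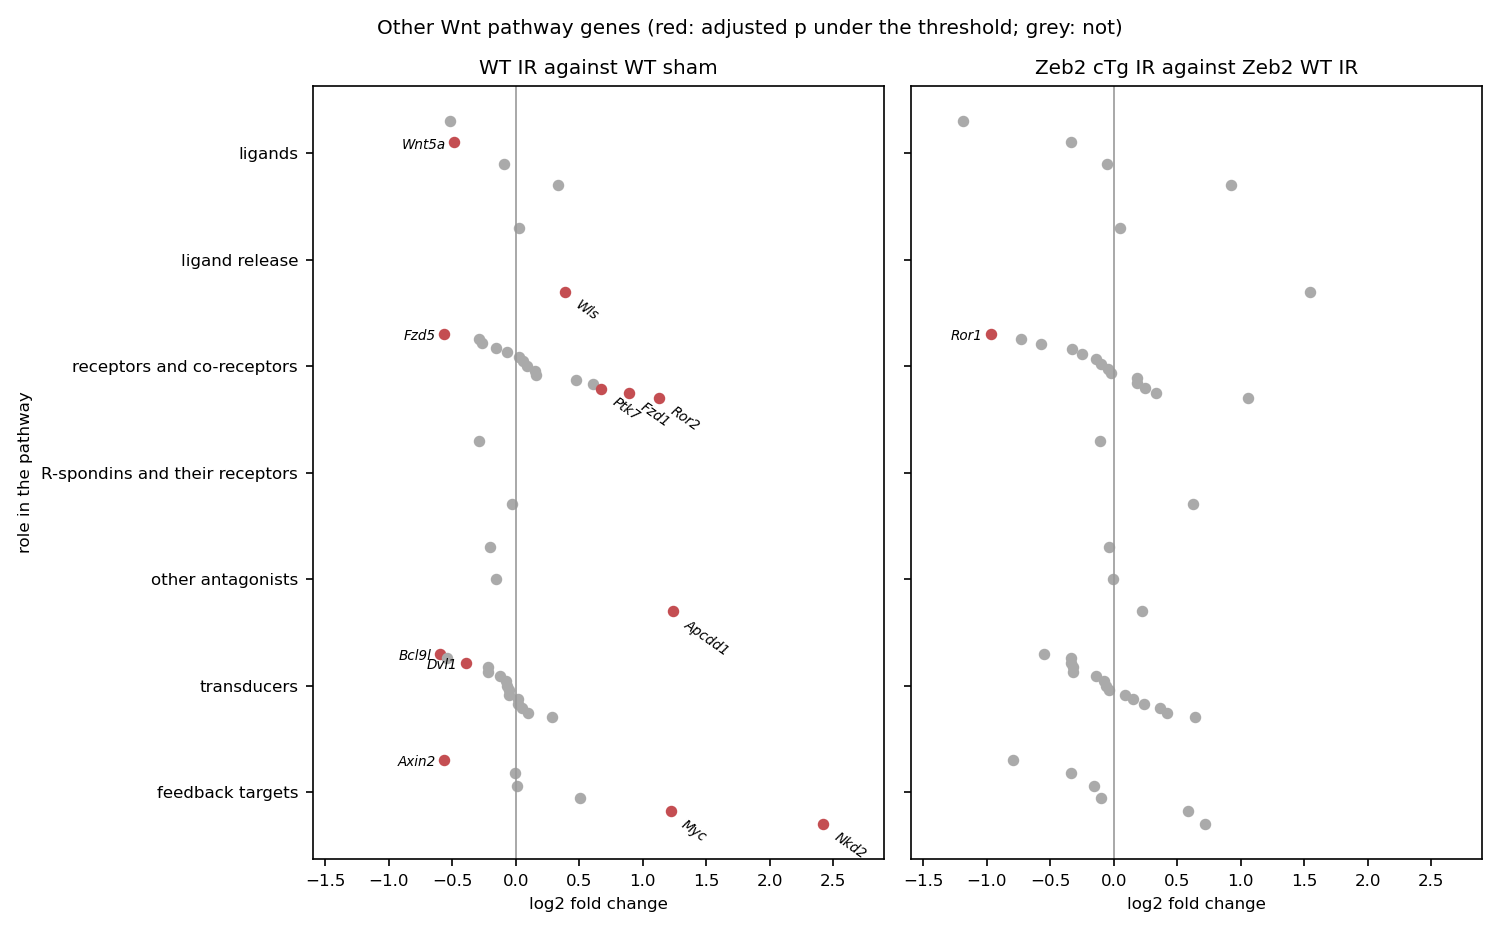
Log2 fold changes of the Wnt pathway genes other than the 8 antagonists, by role, for WT IR against WT sham on the left (47 genes tested) and for the hearts labelled Zeb2 cTg against Zeb2 WT IR on the right (46 genes tested), with 1 dot per gene. Red dots are past the threshold of 0.05 on the adjusted p-value, 12 on the left and 1 on the right, and the height of a dot within a role carries no value.

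The genes most like each antagonist were found among 11951 genes as those with the smallest root mean square difference between log2 CPM deviations from the table mean, over all 12 libraries. The libraries of a table share their normalization, and the measure is a description. For Sfrp2 these were Col8a2 (0.48), Kcnma1 (0.51), Fmod (0.61), Ltbp2 (0.65) and Lox (0.66), where the median gene differed by 2.11. Fmod, Ltbp2 and Lox encode matrix proteins or matrix enzymes, and Col8a2 a collagen chain, while Kcnma1 encodes a potassium channel. Fmod is also one of the scar fibroblast markers. For Wif1 they included Ndnf (0.38), Scn10a (0.39), Slc17a7 (0.43) and Kcne1 (0.50), against a median of 1.19. Ndnf encodes a secreted factor, Scn10a and Kcne1 channel subunits, and Slc17a7 a transporter. None of these is among the fibroblast or scar fibroblast markers, and of the genes named for Sfrp2 only Fmod is. The cells in which these genes are active were not examined. The nearest genes were Abi3bp and Clec11a for Sfrp1, Fibin and Ctsk for Frzb, and Mfap4 and Col12a1 for Dkk3, with differences from 0.18 to 0.34. Among the antagonists themselves, Sfrp1 and Frzb were the closest pair (0.48) and Sfrp2 and Wif1 the farthest (3.03).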

How the data were processed

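Total RNA from 12 mouse hearts, 3 per group, was made into stranded libraries and sequenced as single-end reads of 75 bases. The authors aligned the reads (STAR 2.4.2a and HTSeq 0.6.1 on build mm10 are named in the submitters' processing notes) and deposited 2 tables of unnormalized counts, whole numbers for 38293 genes. The methods name a total RNA kit and the sample records an mRNA kit. The DESeq release of the methods was replaced here by edgeR 4.0.16 in R 4.3.3, fitted within each table.

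TMM factors, filterByExpr (minimum count 10, minimum total 15) and the quasi-likelihood test were used, with p-values adjusted by Benjamini-Hochberg across every gene tested and a threshold of 0.05. SE is the log2 fold change divided by the square root of the test statistic. Exon lengths and GC content are from GENCODE M21, and promoter windows from RefSeq. The antagonists and all gene lists were chosen with earlier results of these data known. The genes named are the 8 antagonists, Zeb2, and of the Wnt list Axin2, Ctnnb1, Wls and every gene past the threshold, plus the 5 (Sfrp2, Wif1) or 2 (others) genes of most similar pattern, of which 1 is not reported here. The alternatives were other size factors (RLE, or from cardiomyocyte or fibroblast markers), removal of mitochondrial genes, other filters, a replicate block, a GC correction (loess, span 0.5), both together, DESeq2 1.42.0, and each library left out in turn. Replicate numbers belong to different mice. P-values set the group difference against the spread between mice, estimated from 3 mice per group with information shared across genes. Groups of 3 were not examined for single outlying values.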

Additional observations from a re-analysis of the deposited data

How the results depend on the processing

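Sfrp2 and Wif1 (Zeb2 table) and Sfrp2, Frzb and Dkk3 (after injury) stayed on the same side of 0 and of the threshold under the 10 alternatives and the 6 fits that left out 1 library in each table, which is no independent support, since these libraries chose the genes, and the count of antagonists past the threshold after injury stayed at 4 under the 10 alternatives (with Wif1 in place of Sfrp1 under fibroblast factors) and was 3 to 5 with a library left out. In the Zeb2 table the count of 2 antagonists became 4, by the addition of Sfrp1 and Dkk3, with cardiomyocyte factors, without a filter, with the replicate block, with the GC correction, with both together and with DESeq2, 3 with RLE factors (Sfrp1 added) and 3 with fibroblast factors (Dkk3 added), and was 2 to 4 with a library left out. The cause was not tested. The count of 1 Wnt pathway gene became 2 under the same 6 alternatives and 6 with fibroblast factors (0 to 6 with a library left out). The 474 genes past the threshold in the Zeb2 table became 2259 with fibroblast factors, 1553 without a filter, 1813 with the replicate block, 856 with the GC correction, 714 with the block and GC correction together and 1027 with DESeq2 (98 to 2419 with a library left out). After injury, 2859 genes became 12261 and the 12 Wnt pathway genes 41 with fibroblast factors (421 to 4980 and 0 to 19 with a library left out). The fibroblast factors rest on markers that themselves rose after injury, so they lower all other genes there, and log2 fold changes turned to -0.96 for Zeb2, -1.09 for Ctnnb1, -1.06 for Wls, -0.56 for Fzd1, -0.19 for Myc, -0.23 for Apcdd1, -0.26 for Ror2 and -0.77 for Ptk7. The correlations of deviations between same-numbered mice were -0.03, 0.01 and -0.01 in the WT table and 0.13, 0.26 and -0.04 in the Zeb2 table, so the numbers were not taken to pair the mice, and the block is an alternative only. Of the 6 libraries in each table, 0 (WT) and 3 (Zeb2) correlated best with their own number in the other group, a hint from the data and not from the design. Depth limits Sfrp4, Sfrp5 and Dkk2, which did not pass the filter. Leaving out a library leaves 2 mice in a group.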

Other observations

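Markers of other cells that a heart sample can hold were counted beside those of fibroblasts. Of all genes tested, 11.0% were higher and 9.74% lower past the threshold after injury, and 2.14% and 1.51% in the Zeb2 table. Counts near these shares are not read as a result about a cell type. After injury 1 of 18 cardiomyocyte markers was higher and 4 lower past the threshold (median log2 fold change -0.23), and in the hearts labelled Zeb2 cTg 2 were higher and none lower (median 0.20). No endothelial marker of 8 passed in either comparison (medians 0.02 and -0.21). Among smooth muscle and pericyte markers 1 was higher and 2 lower of 8 after injury, and 1 higher and 1 lower of 7 tested in the Zeb2 table. Of the epicardial markers 1 of 4 tested was lower after injury, and of those of valve and cartilage-like cells 2 of 3 tested were higher after injury, with neither list past the threshold in the Zeb2 table. The list of atrial cells had 1 of 2 tested genes higher in both comparisons, Nppa, which injured ventricles also make. Nppa had 27.0, 26.7 and 62.2 CPM in Zeb2 WT IR and 104, 240 and 279 CPM in the hearts labelled Zeb2 cTg, while it had 15.5 to 38.7 CPM in WT sham and 222 to 429 CPM in WT IR. The defining atrial genes Sln and Bmp10 were at 0 in all 3 libraries of WT sham and of Zeb2 WT IR. In WT IR, Sln had 1 count in replicate 3 and Bmp10 had 2 counts in replicate 1. In the hearts labelled Zeb2 cTg, Sln had 7 counts in replicate 3 and Bmp10 had 1, 6 and 4 counts. The atrial light chain Myl4 had 0.403, 0.445 and 0.466 CPM in Zeb2 WT IR and 1.55, 0.649 and 1.88 CPM in the hearts labelled Zeb2 cTg. It had 0.530, 0.460 and 0.815 CPM in WT sham and 1.09, 0.635 and 0.895 CPM in WT IR. Another atrial light chain, Myl7, had 39 counts in Zeb2 cTg IR replicate 3 and at most 3 counts in every other library. That replicate was the lowest of its group for Wif1. The part of atrial tissue in the level of Wif1 was not tested.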
